A study of Mus musculus with 15 samples.

Results

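In islets of control mice, 524 of the 8070 accessible regions (peaks) listed in the comparison of islets after and before partial pancreatectomy (PPx, the surgical removal of part of the pancreas) had a log2 concentration at least 0.65 higher after PPx. They are described here as the selected peaks, and they make up 6.49% of the list. The values that chose them were the authors' concentrations of the control group after and before PPx, so their control difference is a description and no test is given for it. The 524 peaks were annotated to 499 genes. Their median control difference was 0.77, a 1.71-fold higher level after PPx, against 0.16 over all 8070 peaks. In the authors' deposited table none of the 8070 peaks passed an FDR of 0.05 in either direction, a share of 0%, and the lowest FDR among the selected peaks was 0.619. The differences are therefore given as levels and not called rises. In βKO islets, whose libraries had no part in the choice, 434 of the selected peaks were listed, and their median change after PPx was 0.83, equal to the median of 0.83 over all 12767 peaks of that comparison.

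ATAC-seq, which uses a transposase (Tn5) to cut and tag open DNA, was run on islets of 15 male mice aged 3 months. The βKO mice (Arid1aFl/Fl; MIP-rtTA; TRE-Cre) numbered 4 after PPx and 3 before it, and the control mice (Arid1aFl/Fl; MIP-rtTA) numbered 4 after PPx and 4 before it. Every mouse thus carried the floxed Arid1a alleles and MIP-rtTA, a doxycycline-dependent activator under the insulin promoter, and only βKO mice carried the Cre. Per the labels' protocols, doxycycline was in the drinking water at 1 g/L for 2 weeks and was withdrawn 1 week ahead of PPx. The islets of the groups after PPx were collected when 6 days had passed since PPx. Cre was therefore directed to cells that use the insulin promoter, while whole islets, with their other endocrine, vascular and stromal cells, were sequenced.

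ATAC-seq peaks mark stretches of DNA free of nucleosomes, mostly promoters and enhancers. Promoters rich in CpG are open in most cell types, whereas enhancers in introns and between genes are often open only in certain cells or states. Arid1a is a subunit of the SWI/SNF (BAF) remodelling complex, which moves nucleosomes and keeps many enhancers open, and loss of pancreatic tissue is known to induce β cell proliferation in mice. The control comparison asks which regions differ after that loss when Arid1a is present.

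Promoter windows are printed for 5 selected peaks on which the values below turn, namely the peak with the largest control difference (Pgk1, a glycolytic enzyme) and the promoter-proximal peaks among the 10 named ones that opened in βKO islets after PPx and had a window. Each window runs from 250 bases before to 50 bases after the start of the gene in RefSeq (GRCm38.p6), 5′ to 3′ on the strand of the gene, with 1-based positions. Capitals mark matches to any of the 11 searched motifs on either strand.
Pgk1 (chrX:106186850-106187149, plus strand): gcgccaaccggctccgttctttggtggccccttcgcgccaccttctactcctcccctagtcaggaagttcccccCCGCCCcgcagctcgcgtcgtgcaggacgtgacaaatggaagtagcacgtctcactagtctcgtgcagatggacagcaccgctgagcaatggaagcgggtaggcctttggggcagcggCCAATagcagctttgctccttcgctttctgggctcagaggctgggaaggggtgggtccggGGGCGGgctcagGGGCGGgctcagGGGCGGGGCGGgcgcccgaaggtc
Lyrm2 (chr4:32800009-32800308, plus strand): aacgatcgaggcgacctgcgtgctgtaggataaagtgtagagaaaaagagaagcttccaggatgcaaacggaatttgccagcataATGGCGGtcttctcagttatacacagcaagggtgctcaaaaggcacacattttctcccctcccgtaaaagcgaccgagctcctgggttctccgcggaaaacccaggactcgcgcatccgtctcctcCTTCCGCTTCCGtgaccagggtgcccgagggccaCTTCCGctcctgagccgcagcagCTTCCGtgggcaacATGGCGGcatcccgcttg
Dmac2 (chr7:25619164-25619463, plus strand): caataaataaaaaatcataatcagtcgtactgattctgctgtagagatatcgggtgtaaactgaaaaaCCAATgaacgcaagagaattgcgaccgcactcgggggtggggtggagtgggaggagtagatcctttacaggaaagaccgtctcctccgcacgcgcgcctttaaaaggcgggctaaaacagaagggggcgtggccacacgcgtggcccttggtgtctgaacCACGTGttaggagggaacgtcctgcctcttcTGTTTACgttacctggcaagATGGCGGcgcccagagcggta
Hopx (chr5:77115074-77115373, minus strand): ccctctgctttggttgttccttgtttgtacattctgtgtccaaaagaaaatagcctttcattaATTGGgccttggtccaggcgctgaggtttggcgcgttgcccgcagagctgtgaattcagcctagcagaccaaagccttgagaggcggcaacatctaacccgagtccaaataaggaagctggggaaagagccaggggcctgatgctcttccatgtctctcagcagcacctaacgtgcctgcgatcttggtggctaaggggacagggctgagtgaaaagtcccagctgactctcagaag
Frrs1 (chr3:116861430-116861729, plus strand): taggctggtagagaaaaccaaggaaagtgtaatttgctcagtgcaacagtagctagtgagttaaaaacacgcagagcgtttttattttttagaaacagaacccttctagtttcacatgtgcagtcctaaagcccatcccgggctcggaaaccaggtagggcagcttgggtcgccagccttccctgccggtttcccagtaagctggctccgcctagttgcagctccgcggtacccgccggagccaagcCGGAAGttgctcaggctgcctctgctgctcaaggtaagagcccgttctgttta
The Pgk1 window held 5 matches to the GC box and 1 CCAAT box. The Lyrm2 window held 4 matches to the ETS core and 2 to the YY1 core. The Dmac2 window held a CCAAT box, an E-box, a YY1 core and a FOXA match. The Hopx window, of which 184 bases lay under the peak, held only a CCAAT box and had 8 CpG. The Frrs1 window held only an ETS core, and its peak was distal intergenic in the authors' annotation although a RefSeq start of Frrs1 lies under it.

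The levels of the selected peaks in control islets were moderate to low. Their median log2 concentration was 3.89 after PPx, with quartiles of 3.65 and 4.24, and 3.08 before PPx, with quartiles of 2.81 and 3.42. Over all 8070 peaks the medians were 4.01 after and 3.86 before PPx. The selected peaks thus stood below the typical peak of the list before PPx and near it after PPx. The mean over both times had a median of 3.54 in the selected peaks and 3.96 in the other 7546, and 404 of the 524 (77.1%) lay below the median of the list. Concentrations are the authors' group values, so they carry no SD here, and values per library were not analysed here.

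**Figure D1:**
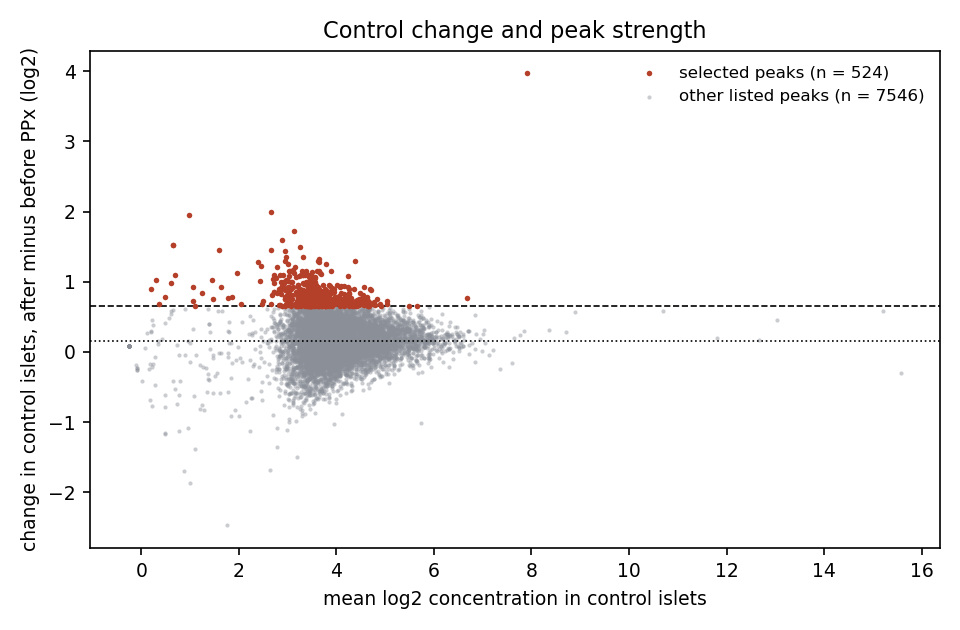
Each point is 1 of the 8070 peaks of the control comparison, with the mean log2 concentration on the x axis and the difference after minus before PPx in control islets (log2) on the y axis. The 524 selected peaks are red, the dashed line is at 0.65 and the dotted line at the median of 0.16. The selected peaks crowd to the left, and their median concentration was 3.54 against 3.96 at the other peaks.

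The share of peaks selected was lower among stronger peaks. When the list was divided into 6 bins of equal size by mean concentration, 13.1% of the weakest bin was selected (176 of 1345) and 0.967% of the strongest (13 of 1345). The standard error implied by the authors' deposited fold and p-value had a median of 0.44 at the selected peaks and 0.38 over all peaks, so a difference of 0.65 is 1.48 times the typical error of a selected peak. The authors' deposited table had 196 peaks higher after PPx with an unadjusted p under 0.05, 2.43% of the list, and 183 of them were among the selected peaks. This count follows from the choice and was not read as a result.

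The number of libraries in which a peak was called moved with the choice. Of the selected peaks, 397 were called in more control libraries after than before PPx, 110 in as many and 17 in fewer. A total of 188 (35.9%) were called in no control library before PPx, against 403 of all 8070 peaks (4.99%), and 154 of these were called in exactly 2 libraries after PPx. Such peaks entered the list only through the libraries after PPx, so a higher value there was needed for them to be listed. Only 31 selected peaks (5.92%) were called in all 8 control libraries, against 1839 of all peaks (22.8%).

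Around the threshold, 24 peaks had a difference of exactly 0.65 and 32 had 0.64. Just inside lay peaks near Lyst (3.24 after and 2.59 before PPx), Gm23551 (3.46 after and 2.81 before) and Sult1c2 (3.51 after and 2.86 before). Just outside lay peaks near Gm24614 (6.18 after and 5.54 before), Gm21985 (4.87 after and 4.23 before) and Tdrp (4.62 after and 3.98 before). Peaks on both sides of the threshold thus differed by 0.01 or less in the value that chose them.

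Fewer of the selected peaks lay at promoters than of the list as a whole. By the authors' annotation, 233 of 524 (44.5%, 95% Wilson interval 40.3 to 48.7) were within 3 kb of a transcription start, against 5379 of 8070 (66.7%, 65.6 to 67.7). Distal intergenic peaks made up 170 (32.4%, 28.6 to 36.6) against 20.1% of the list. Introns held 103 (19.7%, 16.5 to 23.3) against 11.0%. The remaining 18 comprised 7 exonic, 5 downstream and 5 3′ UTR peaks and 1 in a 5′ UTR. The intervals cover counting error only, and peaks near each other are not independent.

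**Figure D2:**
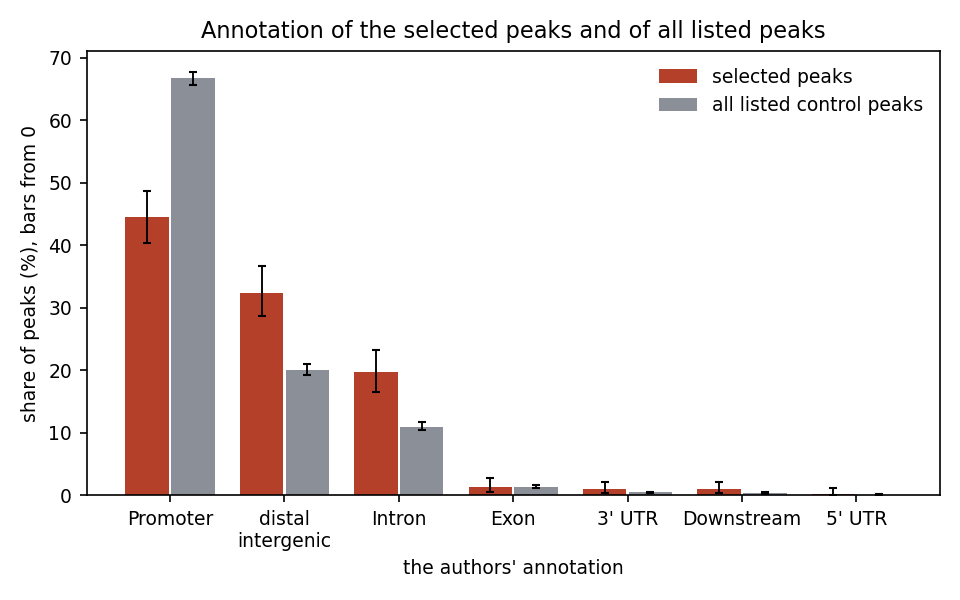
Bars give the share of peaks (%) in each class of the authors' annotation for the 524 selected peaks (red) and all 8070 peaks of the control comparison (grey), with 95% Wilson intervals as error bars. Promoters held 44.5% of the selected peaks against 66.7% of all peaks, and distal intergenic sequence held 32.4% against 20.1%.

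Strength moves with this difference, and weak peaks of the list were less often promoters. Within each of the 6 strength bins the promoter share of the selected peaks was still below that of the other peaks. In the weakest bin it was 27.8% against 42.7%, in the fourth 41.7% against 73.0%, and in the strongest 76.9% against 84.4%. Promoter peaks that were selected had a median concentration of 3.66, against 4.08 for all promoter peaks. The selected peaks were also more often annotated to predicted genes with provisional names (142, or 27.1%, against 1550, or 19.2%, of the list).

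Away from promoters, the selected peaks lay about as far from the RefSeq starts available here as other peaks did. The median distance from a peak's centre to the nearest available start was 13148 bp for the 513 selected peaks with a value. Over the 7779 peaks of the list with one it was 336 bp. The set of starts was incomplete, so these distances are upper bounds. It held none on chromosome 18, where 11 selected and 291 listed peaks have no value. The Stau2 peak, within 1 kb of a start in the authors' annotation, had a distance of 1626429 bp. Outside promoters the medians were 41.6 kb in the selected peaks and 41.7 kb in the list, and 31.6% against 29.3% lay over 100 kb away. The 103 intronic peaks were in 96 genes, and the 91 genes with a known length had a median of 151 kb, against 142 kb for all genes with an intronic peak in the list. Genes over 500 kb numbered 14 (15.4% against 13.8%). They included the cell adhesion genes Cntn5, Ctnnd2 and Tenm2 and the kinase gene Alk. By chromosome, the share selected ran from 3.32% on chromosome 11 (8 of 241 peaks) to 8.72% on the X chromosome (26 of 298), and 56 selected peaks lay within 100 kb of another.

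Promoter sequences under the selected peaks were slightly poorer in CpG than those under all listed peaks. A RefSeq window lay at least 150 bases under 140 selected peaks, 127 of them among the 233 promoter peaks, which gave 173 windows. The windows come from the same incomplete set of starts, with none on chromosome 18. Their median GC content was 60.0%, against 62.3% in the 4865 windows under any listed control peak and 52.7% in all 32815 RefSeq windows of this length. An observed over expected CpG ratio of 0.6 or more was found in 72.3% of the selected windows, against 83.0% under any listed peak and 35.8% of all windows.

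The GC box bound by SP and KLF factors (GGGCGG) was present in 53.8% of the selected windows, against 71.8% under any listed peak and 35.6% of all windows. The CCAAT box (CCAAT) was in 39.9%, against 48.2% and 37.4%. The ETS core (CGGAAG) was in 32.4%, against 37.3% and 16.9%. The CRE core (TGACGT) was in 8.67%, against 15.1% and 7.51%, and the NRF1 core (TGCGCA) in 13.3%, against 16.6% and 7.74%. The selected windows thus lay between the listed peaks and all RefSeq promoters for these 5 motifs.

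The AP-1 motif (TGANTCA), bound by Fos and Jun proteins, was in 5.2% of the selected windows, against 3.66% under any listed peak and 7.81% of all windows. The YY1 core (ATGGCGG) was in 11.0%, against 8.37% and 4.05%, and the E-box (CACGTG) in 11.0%, against 10.3% and 7.15%. For the FOXA motif (TGTTTAC) the shares were 2.89%, 2.3% and 3.65%, for the RFX motif (GTTGCCA) 4.62%, 4.28% and 4.38%, and for the TATA box (TATAAA) 5.2%, 5.18% and 13.6%. These are matches of letters on either strand, matches of different motifs may overlap, and none is evidence of binding. Distal peaks are not covered by these windows.

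The largest control difference stood at the promoter of Pgk1, at chrX:106186576-106187176, whose window is printed above. Its log2 concentration was 6.67 after and 4.84 before PPx in βKO islets, a change of 1.83, whose FDR was 0.0503 by the authors' deposited table. In control islets it read 8.81 after and 4.84 before PPx, a difference of 3.97, and it was called in all 4 control libraries at each time. The authors' deposited table gives the control difference a p-value of 1 and an FDR of 1 in spite of its size. In the comparison of genotypes after PPx it read 6.68 in βKO and 8.76 in control islets, where the authors' deposited table again gives an FDR of 1. Before PPx the same comparison of genotypes had 5.09 in βKO and 5.01 in control islets. No comparison put this promoter past the threshold. Whether a single library carries its control value could not be checked from group values, so no difference between the genotypes is read from it.

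Apart from Pgk1, the peaks with the largest control differences among the stronger selected peaks of named genes had differences between 0.97 and 1.33. A distal peak annotated to Ndufa4, a respiratory chain subunit, read 3.78 after and 2.36 before PPx in βKO islets and 4.16 after and 2.83 before in control islets. The promoter peak of Gpr85, an orphan G protein-coupled receptor, read 4.41 after and 3.75 before in βKO islets and 4.28 after and 3.03 before in control islets. A peak 1 to 2 kb from a start of Kat2b, a histone acetyltransferase, read 3.98 after and 3.21 before in βKO islets and 4.12 after and 2.96 before in control islets. Relative to the median change of the βKO comparison, the changes in βKO islets were 0.59 at Ndufa4, -0.17 at Gpr85 and -0.06 at Kat2b.

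The promoter of Inafm1 read 4.34 after and 3.00 before in βKO islets and 4.35 after and 3.20 before in control islets, and its βKO change was 0.51 above the median of the table. Exon 58 of 103 of Dst, which encodes a cytoskeletal linker, read 4.03 after and 2.91 before in βKO islets and 4.14 after and 3.03 before in control islets, and its βKO change was 0.29 above the median of the table. The matched βKO peaks were centred 483 bp away at Inafm1 and 450 bp away at Dst, so both genotypes were read over partly different bases. In the comparison of genotypes after PPx, the peak matched at Inafm1 read 4.32 in βKO and 3.62 in control islets, and that at Dst 4.11 and 4.25. A distal peak annotated to Chl1, a neural cell adhesion gene, read 3.36 after and 3.13 before in βKO islets and 3.98 after and 2.98 before in control islets, and its βKO change was -0.60 relative to the median of the table. The other members of this group lay near Fut10, Adgrb3, Atp23, Tescl and the 5′ UTR of Gas2, with βKO changes between -0.21 and 0.40 relative to the median. By the FDR of DiffBind in the authors' deposited table, 0 of these 12 peaks opened in βKO islets, and 5 were higher at an unadjusted p under 0.05. Over all βKO peaks 7.44% opened and 39.4% were higher at that p, so these counts are not set apart from the background. Pgk1 (FDR 0.0503) and Inafm1 (FDR 0.0507) came nearest to the threshold in the authors' deposited table.

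Among the 5 strongest selected peaks were the promoters of Pfkfb2, which encodes an enzyme that sets the level of a glycolysis activator, and Khdrbs2, which encodes an RNA-binding protein. In βKO islets Pfkfb2 read 5.94 after and 5.12 before PPx, -0.01 relative to the median, and Khdrbs2 5.90 after and 5.64 before, -0.57 relative to the median. In control islets the 5 peaks lay near Pgk1, Gm9075 (7.01 after and 6.24 before PPx), Zfp958 (5.94 after and 5.29 before), Khdrbs2 (5.77 after and 5.11 before) and Pfkfb2 (5.35 after and 4.62 before).  The peak with the lowest control FDR among the selected ones (0.619 in the authors' deposited table), near Gm21860 on the Y chromosome, read 4.89 after and 3.59 before PPx. Gm21860, Gm9075, Zfp958, Speer4cos and Rpl21-ps14 are pseudogenes, predicted genes or members of multicopy families that may share reads with similar copies, so the values at their peaks are uncertain.

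Several genes held more than 1 selected peak. There were 23 such genes, 5 of them predicted, and Csmd3 and Pkhd1 held 3 each. At Pkhd1, the gene of the cilium protein fibrocystin, the promoter read 4.47 after and 3.47 before PPx in βKO islets, 0.17 above the median change, and exon 61 of 67 read 3.66 after and 3.92 before, -1.09 relative to it. In control islets the promoter read 4.25 after and 3.51 before, exon 61 read 4.84 after and 4.15 before, and intron 35 of 66, which was not matched in βKO islets, read 3.80 after and 3.10 before. At Csmd3, a large membrane protein gene, the peaks in introns 12 and 9 of 68 lay 0.47 and 0.50 above the βKO median, and a weak distal peak (0.22 after and 1.57 before in βKO islets, 1.45 after and 0.52 before in control islets) was at -2.18. Both Kat2b peaks and both Dst peaks lay between -0.06 and 0.29 relative to the βKO median. The others named by the same rule were Gm10354, Unc5c, Gm26907 and Usp14.

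The 17 gene lists of islet cell types, signalling and growth held 355 genes with 191 listed control peaks. Of these peaks, 9 at 7 genes were selected (4.71%), near the 6.49% of all peaks. The cell cycle list had 4 selected peaks among its 27 listed ones (14.8%), at Cdk6, a G1 cyclin-dependent kinase, and Myc, a growth-promoting transcription factor, against 6.49% of the whole list. The median control difference of all 27 cell cycle peaks was 0.18, close to 0.16 over all peaks. None of the 15 peaks of the β cell identity list was selected, and their control differences had a median of 0.19 and ran from -0.28 at Rfx6 to 0.58 at G6pc2.

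The Cdk6 promoter read 4.38 after and 3.93 before PPx in βKO islets, -0.38 relative to the median. In control islets it read 4.15 after and 3.25 before and was called in 3 libraries after and 0 before. A Cdk6 peak in intron 5 of 7 read 4.29 after and 3.46 before in βKO islets and 4.10 after and 3.34 before in control islets, and its βKO change was 0.00 relative to the median. A Cdk6 peak in intron 4 that was not selected read 3.95 after and 3.89 before in control islets.

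Both selected Myc peaks were distal. One, at chr15:61766675-61767275, read 3.42 after and 3.19 before PPx in βKO islets and 4.04 after and 3.19 before in control islets, and its βKO change was -0.60 relative to the median. The other, at chr15:61888423-61889023, read 3.21 after and 1.93 before in βKO islets and 3.74 after and 2.89 before in control islets, and its βKO change was 0.45 above the median. Each was called in 2 control libraries after and 0 before PPx. The Myc promoter, with 4.81 after and 4.26 before in control islets, missed the threshold with 0.55. A call of Myc as the gene served by these distal peaks rests on the authors' nearest-gene annotation alone.

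The other list genes with a selected peak were Nrg3, Inhba, Rictor, Scg5 and Cacna1d. Intron 1 of Nrg3, a ligand of the receptor Erbb4, read 4.11 after and 3.20 before PPx in βKO islets and 3.83 after and 2.99 before in control islets. Intron 4 of Inhba, which encodes an activin subunit, read 4.49 after and 4.17 before in βKO islets and 4.25 after and 3.52 before in control islets. The promoter of Rictor, a subunit of mTOR complex 2, read 4.49 after and 3.38 before in βKO islets and 3.75 after and 3.03 before in control islets.

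Intron 2 of Scg5, whose product 7B2 aids prohormone convertase 2, read 3.40 after and 2.67 before in βKO islets and 3.81 after and 3.04 before in control islets. Intron 8 of Cacna1d, a calcium channel subunit of β cells, read 3.65 after and 2.50 before in βKO islets and 3.83 after and 3.14 before in control islets. Of the 9 list peaks, 0 opened by the FDR of DiffBind in the authors' deposited table for βKO islets, where 7.44% of all peaks opened, and 3 were higher at an unadjusted p under 0.05, as 39.4% of all peaks were. Their βKO changes relative to the median ran from -0.60 to 0.45.

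The lists without a selected peak were β identity, the other endocrine cells, duct (2 listed peaks), endothelial (4), stromal (4) and the unfolded protein response (15). Those of immediate early and cAMP response genes (20), Wnt and Notch signalling (12), SWI/SNF subunits (9), and oxidative phosphorylation and mitochondrial biogenesis (11) had none either. Of the 32 genes of the β cell identity list, 13 had a listed control peak, Ins1, Nkx6-1, Pax6 and Slc30a8 among them, and the others had none. The islet label was thus met at only some of its markers. The Ins1 promoter read 4.17 after and 3.90 before PPx in control islets, and the Gcg peak of α cells 3.85 after and 3.42 before. Acinar and macrophage genes had 0 listed peaks of 12 and 8 genes in the control comparison. With whole islets, fewer cells of a type and less accessibility per cell cannot be told apart.

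The selected peaks were followed in βKO islets, whose 4 libraries after and 3 before PPx are independent of the control libraries. Matching by centres within 600 bp found 434 of the 524 (82.8%), against 7102 of the other 7546 (94.1%). The 90 unmatched peaks were weaker, with a median control concentration of 3.23 against 3.61 in the matched ones. βKO levels at the matched peaks had medians of 4.18 after and 3.27 before PPx, against 4.66 after and 3.81 before at the other peaks. The selected peaks were thus weaker in βKO islets too, at both times.

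Relative to the general gain in βKO islets after PPx, the selected peaks did not stand apart. Their change minus the table median had a median of 0.00, with quartiles of -0.29 and 0.27 and a range of -2.18 to 1.82, while the other matched peaks had a median of 0.00 with quartiles of -0.21 and 0.21. Of the 434, 216 lay above the table median, 211 below and 7 on it. A relative change of at least 0.49, the excess of the threshold over the control median, was found in 48 (11.1%), against 525 of the other peaks (7.39%). At the other end, 26 selected peaks (5.99%) did not gain at all, against 151 of the others (2.13%). The selected peaks thus spread further to both sides. Their median βKO standard error was larger too, with 0.49 against 0.43, and its part in this spread was not tested.

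The βKO change did not follow the size of the control difference. Across the 7536 matched peaks Pearson's r between both changes was 0.01 and Spearman's rho 0.01, and among the 434 selected peaks r was -0.02 and rho -0.08, given as descriptions since peaks share libraries. Peaks with a control difference below -0.2 had a relative βKO median of 0.00 (n = 710). The bins of selected peaks had 0.01 (0.65 to 0.8, n = 256), 0.01 (0.8 to 1, n = 123) and -0.07 (1 and over, n = 55). The last bin had quartiles of -0.39 and 0.22. Over all control peaks the changes had quartiles of -0.02 and 0.36 and a median standard error of 0.38. In βKO islets the median error at matched peaks was 0.44. With errors of this size, a correlation near 0 cannot tell unrelated changes from related ones, so no conclusion is drawn from it.

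**Figure D3:**
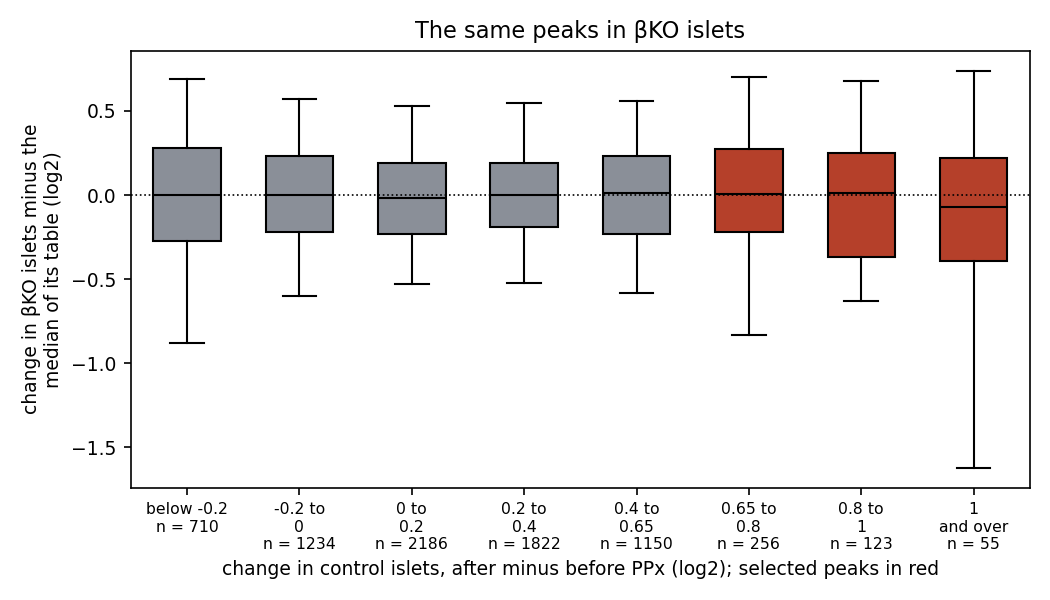
Boxes show the change in βKO islets after PPx minus the median of its table (log2) for peaks binned by their change in control islets (log2), with selected peaks in red and the others in grey. Lines inside boxes are medians, box edges are quartiles, and whiskers reach the 5th and 95th percentiles. All medians lie between -0.07 and 0.01 while the control change runs from below -0.2 to 1 and over.

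Some selected peaks did open in βKO islets, at about the rate of the whole comparison. Part of the βKO peaks were listed only through the libraries after PPx, as given below, which needed a higher level there. In the authors' deposited table, 35 of the 434 had an FDR under 0.05 with a higher level after PPx (8.06%), against 950 of 12767 peaks (7.44%) and 745 of the other 7102 matched peaks (10.5%). In the same test, by DiffBind, 0 of the 434 closed (0% of the table), and 0 were lower at an unadjusted p under 0.05 (0.0235% of the table). With the authors' p-values adjusted by Benjamini-Hochberg over all listed peaks, 21 selected peaks passed (4.84%). The share was 4.49% of the table and 6.13% of the other matched peaks. At an unadjusted p under 0.05, 170 were higher (39.2%), against 39.4% of the table and 48.1% of the other matched peaks. In each of these counts of higher peaks, the selected peaks were near the whole table and below the other matched peaks. An FDR of 1 was given to 71 of the selected peaks (16.4%) in the authors' deposited table, and these could not be called opened. The same held for 2669 peaks of the table (20.9%) but for only 390 of the other matched peaks (5.49%). The part of this in the lower share opened among the selected peaks was not tested.

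When each βKO change was set against the table median in an approximate normal test, no peak of the table passed adjustment, a share of 0%, the selected peaks included. At an unadjusted p under 0.05 in this approximate test, 6 selected peaks were higher (1.38%, against 0.744% of the table) and 8 were lower (1.84%, against 0.956%). With a median standard error of 0.49 at the selected peaks, this test can call only large excesses, so the lack of calls is not read as a result.

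Promoters were the largest class among the peaks that opened, but with a smaller share than among all opened βKO peaks (781 of 950). Of the 35, 22 lay at promoters (10.1% of the 218 matched there, against 9.72% of βKO promoter peaks), 7 were distal intergenic (5.47% of 128, against 3.18%) and 6 intronic (8.33% of 72, against 4.54%). The relative βKO median was 0.03 at selected promoters and 0.03 at all βKO promoters, -0.08 and -0.09 at distal peaks, and 0.01 and -0.01 in introns. By size of the control difference, opened peaks numbered 27 of 256 peaks (10.5%) between 0.65 and 0.8, 6 of 123 (4.88%) between 0.8 and 1, and 2 of 55 (3.64%) above. Peaks with larger control differences were weaker, with median concentrations of 3.66, 3.49 and 3.21 in these bins, and the part of strength was not tested.

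The opened peak with the largest relative change at a named gene lay near Rpl21-ps14, a ribosomal protein pseudogene. It read 4.25 after and 1.90 before PPx in βKO islets and 4.32 after and 3.42 before in control islets, and its FDR for βKO islets was 0.023 by the authors' deposited table. The promoter of Arfip1, which encodes a protein of the trans-Golgi network, read 4.30 after and 2.10 before in βKO islets and 3.74 after and 3.09 before in control islets, and its FDR was likewise 0.023 by the authors' deposited table. A distal peak near Gjd2, the gene of the gap junction protein connexin 36 that couples β cells, read 4.78 after and 3.03 before in βKO islets and 4.52 after and 3.81 before in control islets, and the authors' deposited table gives it an FDR of 0.0231. At each of these 3 peaks the level before PPx read lower in βKO than in control islets, although the levels come from separately normalized tables. The 3 were named for their large βKO changes, so a low βKO level before PPx is partly fixed by that choice and is not read as a result.

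Intron 2 of Rasgrf2, a Ras activator, read 4.83 after and 3.10 before in βKO islets and 4.97 after and 4.19 before in control islets. It was called in all 4 βKO libraries after and 0 of 3 before PPx, and in all 8 control libraries. This peak too was named for its large βKO change, so a lack of βKO calls before PPx is partly fixed by that choice. Intron 4 of Hepacam2, an immunoglobulin-like adhesion gene, read 5.34 after and 3.73 before in βKO islets and 4.86 after and 4.16 before in control islets. A distal peak near Ceacam12 read 4.45 after and 2.49 before in βKO islets and 4.27 after and 3.52 before in control islets.

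At the promoters printed above, Lyrm2, a mitochondrial protein gene, read 4.93 after and 3.24 before in βKO islets and 4.09 after and 3.44 before in control islets. Dmac2, an assembly factor of respiratory complex I, read 4.58 after and 2.91 before in βKO islets and 4.06 after and 3.35 before in control islets. Hopx, a small homeodomain protein gene, read 4.24 after and 2.63 before in βKO islets and 4.13 after and 3.30 before in control islets. Frrs1, a ferric reductase gene, read 4.37 after and 2.80 before in βKO islets and 4.35 after and 3.61 before in control islets. For these 4 peaks the authors' deposited table gives an FDR between 0.0282 and 0.0397.

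**Figure D4:**
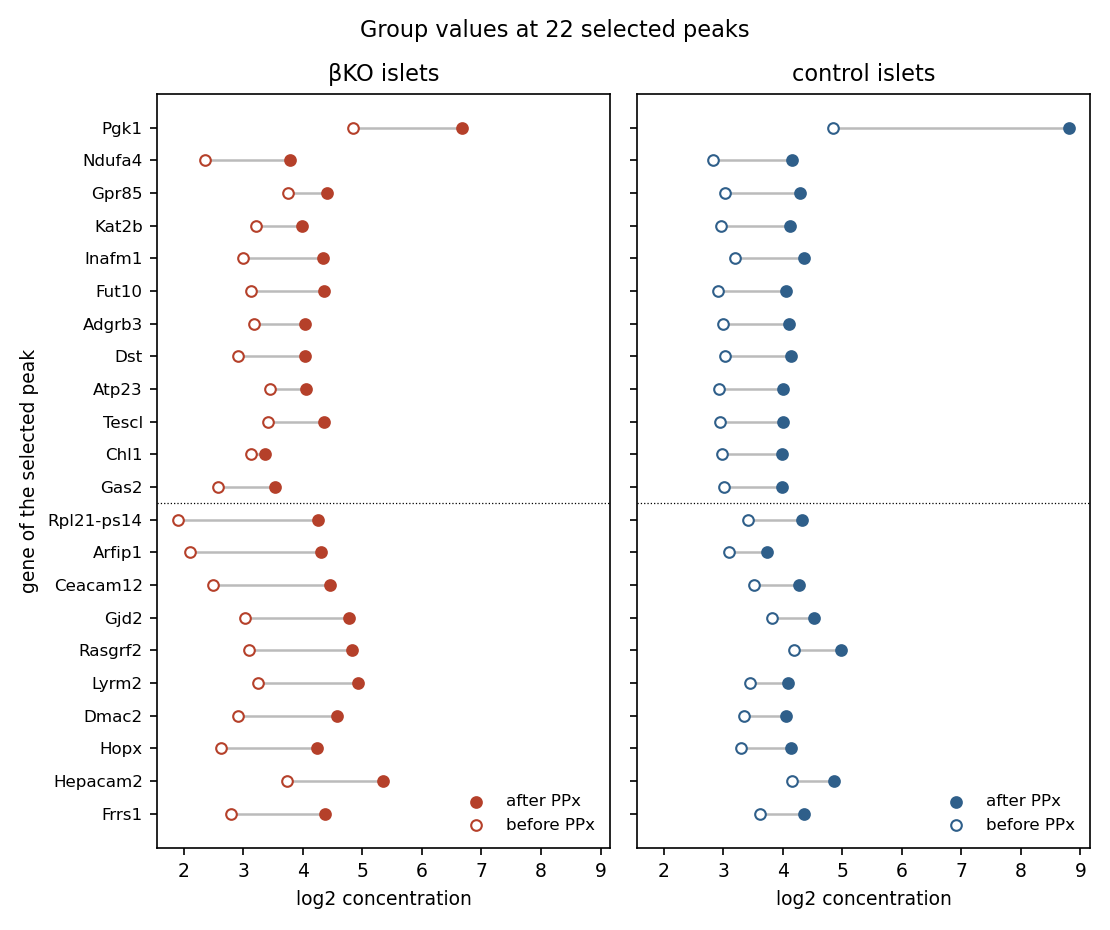
Points give the authors' log2 concentration after (filled) and before PPx (open) in βKO islets (left) and control islets (right) at 22 selected peaks, joined by a line for each peak. Above the dotted line are the 12 with the largest control differences among stronger peaks, and below it the 10 opened in βKO islets with the largest relative change. In the lower set the open points of βKO islets lie at 3.73 or below, while those of control islets reach 4.19. The lower set was named for large βKO changes, so low βKO levels before PPx are partly fixed by that choice. Levels of βKO and control islets also come from separately normalized tables, so this contrast is not read as a result.

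The other 18 opened peaks of named genes had smaller relative changes, between 0.17 and 0.72. They included promoters of the mitochondrial genes Coq3 (5.43 after and 3.94 before in βKO islets, 4.76 after and 4.09 before in control islets), Timmdc1 (5.44 after and 3.99 before in βKO islets, 4.64 after and 3.87 before in control islets) and Slc25a4 (4.41 after and 3.12 before in βKO islets, 3.84 after and 3.02 before in control islets). Promoters of the glutaredoxin gene Glrx, the vesicle coat gene Sec24b, the ribonucleotide reductase gene Rrm2b and the exocytosis gene Rims2, and an intron of the exocyst gene Exoc4, were also among them. A further 7 were annotated to predicted genes.

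At the other end, the lowest βKO changes at named genes were near Csmd3 (-2.18), Commd10 (-1.86), D5Ertd579e (-1.41), Fgfr2 (-1.38), Unc5c (-1.33) and Cntn5 (-1.24), relative to the table median. Intron 2 of Fgfr2, a fibroblast growth factor receptor, read 2.35 after and 2.90 before in βKO islets and 3.15 after and 2.48 before in control islets. Intron 2 of Cntn5, a neural adhesion gene, read 3.40 after and 3.81 before in βKO islets and 3.77 after and 2.98 before in control islets. By the FDR of DiffBind in the authors' deposited table, 0 of these 6 peaks closed, as did 0% of all βKO peaks. At an unadjusted p under 0.05, 0 of the 6 were lower, against 0.0235% of all peaks (3 of 12767).

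The selected peaks were called in fewer βKO libraries than other peaks. Of the matched selected peaks, 107 (24.7%) were called in no βKO library before and at least 2 after PPx, against 843 of the other matched peaks (11.9%). Such peaks entered the βKO list only through the libraries after PPx, so a higher value there was needed for them to be listed. The opened peaks near Rpl21-ps14, Arfip1, Ceacam12, Gjd2, Rasgrf2, Dmac2 and Hopx were among them. In all 7 βKO libraries 83 (19.1%) were called, against 3118 of the others (43.9%).

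Both comparisons of genotypes share the control libraries with the choice, so their direction at the selected peaks is partly fixed by it and is given as values only. After PPx, βKO minus control had a median of 0.17 at 516 matched selected peaks, against 0.61 over the whole table. In the authors' deposited table, 6 of the 524 selected peaks (1.15%) were opened in βKO, against 1296 of 13111 (9.88%). Among these 6 was the Rictor promoter, with 4.49 in βKO and 3.47 in control islets and, by the authors' deposited table, an FDR of 0.0462. Others passed an FDR of 0.05 there with a lower level in βKO islets, and these were not counted. They included exon 61 of Pkhd1 (3.63 in βKO and 4.79 in control islets), a peak downstream of Gm10354 (2.23 and 4.17) and the Gm21860 peak (3.44 and 4.69). Before PPx, βKO minus control had a median of 0.28 at 293 matched selected peaks, against -0.01 over the whole table. The selected peaks were high in the control libraries after PPx and low in those before by choice.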

How the data were processed

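The deposited tables hold 1 comparison each, with peaks of 601 bp. Per the submitters' processing notes, the tools were ChIPseeker, DiffBind, MACS, BWA and cutadapt and the build was mm10 (GRCm38). Tool versions, settings and whether reads were shifted for Tn5 are not given in the sources used. Each peak has log2 concentrations (a mean and 1 value per group), a log2 fold, an FDR and a p-value, per the file headers. The numbers of libraries in which a peak was called are the authors' counts, per the file headers. Values per library were not analysed here and depth is unknown, so precision rests on the authors' p-values.

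Repeated rows were counted as 1 peak (4588 in the βKO table, 1337 in the control table). Differences were turned to after minus before PPx and βKO minus control. Selected peaks were those with a difference of at least 0.65 between the control group values. βKO peaks were matched by the nearest centre within 600 bp, and changes were taken relative to the βKO table median. "Opened" means an FDR under 0.05 with a higher level, in the authors' deposited table. For the approximate normal test, a standard error was taken from the authors' p-value and fold. Where p was 0.5 or more, or the change was under 0.1, the median of 20 bins of concentration was used. Adjustment was by Benjamini-Hochberg over the whole table, and the steps were tested on simulated data. Python 3.11.15 with pandas 2.3.3, numpy 2.4.6, scipy 1.17.1 and matplotlib 3.10.9 was used. Levels in different tables are not strictly on 1 scale.

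Named genes were the 12 selected peaks with the largest control difference among those of at least median concentration, genes with several selected peaks (up to 8), the 10 opened ones with the largest and the 6 with the lowest relative βKO change, all list genes, 3 peaks on each side of the threshold and the 5 strongest. Predicted genes were left out of the 12, the 10 and the 6. Other opened peaks, and list genes outside the selection, were named after their values were seen. The peaks, gene lists and motifs were chosen with earlier results of these data known. Genes were matched to RefSeq by symbol.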

Additional observations from a re-analysis of the deposited data

How the results depend on the processing

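The median βKO change of the selected peaks relative to the table median stayed between -0.01 and 0.03 over the 10 alternatives tried. The number of selected peaks was 1100 with a difference of at least 0.5, 226 with at least 0.8 and 120 among peaks of at least median concentration. It was 529 with the authors' own fold and 645 when repeated rows were counted. The number opened in βKO islets was 149 at an FDR under 0.1, 34.3% of those matched against 30.9% of the table, and 0 at an FDR under 0.01, where the table had 5. It was 21 after adjustment over all listed peaks and 13 among selected peaks with a control p under 0.05, which is 8.28% of 157 and was chosen after seeing the data. In the approximate test, 0 passed adjustment and 6 passed at an unadjusted p under 0.05. The promoter share was 39.5% for promoters within 1 kb (64.2% of the list), 51.3% at a difference of at least 0.5, 38.1% at 0.8, and 57.5% among peaks of at least median concentration, against 78.5% of all peaks of that strength, also chosen after seeing the data. No paired analysis was possible because the tables hold group values and the labels give the groups no shared replicate numbers. For the same reason no library could be left out. Weak peaks carry the least precision: the median standard error in βKO islets was 0.49 at selected peaks and 0.43 at the others.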

Other observations

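Peaks at solute carrier genes, a family chosen after the values were seen, made up 16 of the 524 selected peaks, 15.2% of the 105 peaks listed at such genes in the control comparison, against 6.49% of all peaks. Their relative βKO median was 0.06 over the 14 that were matched, and 1, at the ADP/ATP carrier gene Slc25a4, opened in βKO islets. The promoter of the iron exporter gene Slc40a1 read 5.46 after and 4.29 before PPx in βKO islets and 5.10 after and 4.43 before in control islets. Zinc finger genes held 12 selected peaks, 5.38% of their 223 listed peaks, and by the FDR of DiffBind in the authors' deposited table, 0 of them opened in βKO islets, while 8 of the 12 were higher at an unadjusted p under 0.05. Over all βKO peaks 7.44% opened and 39.4% were higher at that p.

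Control peaks as far below the control median as the threshold lies above it, with a difference of -0.33 or less, numbered 421 (5.22% of the list). Their median concentration was 3.49 and 60.6% lay at promoters. In βKO islets 361 were matched, with a relative median of -0.01 (quartiles -0.27 and 0.28), and 34 (9.42%) opened in the authors' deposited table.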
